A study of Mus with 4 samples.

Results

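Circular RNAs (circRNAs) are closed transcripts made by back-splicing, in which the end of an exon is joined to the start of the same or an upstream exon, and a sequencing read that crosses this junction marks the circle. VLDLR, the very-low-density lipoprotein receptor, takes up triglyceride-rich lipoproteins and, with LRP8, receives the secreted signal Reelin, which acts inside the cell through DAB1. In the mouse eye its loss is known for blood vessels that grow out of place beneath the retina. Breathing a high level of oxygen after birth stops the growth of the retinal vessels, and the return to room air leaves the poorly perfused retina short of oxygen, which is the basis of a widely used model of retinopathy.

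The comparison was between ocular tissue of C57BL/6J mice labelled VLDLR deletion and of wild-type C57BL/6J mice at postnatal day 13 (P13). Pups of both genotypes had been kept in 75% oxygen from day 7 to day 12 (P12), so that the P13 tissue was taken 1 day after the return to room air. Libraries of both genotypes taken at P12 were used for reference. Each of the 4 groups held 1 library of total RNA from which ribosomal and linear RNA had been removed, and the labels do not give the number, sex or litter of the animals in a library, nor the allele or zygosity of the deletion.

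CircRNAs were taken into the comparison where they had at least 20 back-spliced junction reads over the P13 libraries, which 8014 of the 35427 circRNAs listed in either P13 library and of the 44073 listed in the series had. Reads were scaled to the total of junction reads in the library. Calls needed a ratio of deletion to wild type of at least 2 (higher) or at most 0.5 (lower) whose exact 95% counting interval left out 1. With 1 library on each side there was no replicate check and no test. A call says that the counting interval between 2 libraries left out 1, and not that the conditions differed. The intervals were not corrected for the number of circRNAs compared, so that some calls can be counting error alone. At the minimum itself, 42 of the 353 circRNAs with 20 reads were called higher and 24 lower, and of the 349 circRNAs with 19 reads, which were left out, 28 and 26 would have been.

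The libraries differed in ways other than genotype. Wild type held 662811 junction reads at P12 and 759063 at P13, and the deletion 299723 and 341873. This order, wild type at P12 and P13 and then the deletion at P12 and P13, is kept for every set of 4 values below. The wild-type libraries came from 1 sequencing run and the deletion libraries from another, so that genotype and run cannot be told apart. CircRNAs of the Y chromosome, from Uty, Kdm5d and Ddx3y among other hosts, held 252, 342, 80 and 0 reads. At the share of wild type P13, deletion P13 would have held 154.0, and a count of 0 allows a share of at most 0.000878% of its reads. Circles of Xist, on the X chromosome, held 5, 6, 3 and 0 reads. The X chromosome took 1.55% of the reads in wild type P13 and 1.73% in deletion P13. Of its 193 tested circRNAs 29 were called higher and 15 lower. The part of this difference in the other results was not tested; without X and Y the counts of calls below became 794 higher and 752 lower of 7815. Vldlr held no circRNA in any library, so that the targeted gene gave no check of the labels. The authors' other scale, SRPBM, divides each library by its own constant, and on it the median log2 ratio over all tested circRNAs was -1.60 in place of -0.04. Directions here are therefore relative to the total of junction reads in each library.

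In the deletion at P13, 819 circRNAs were higher (10.2% of those tested) and 771 were lower (9.62%). On the SRPBM scale the same rule gave 34 higher and 5834 lower. Among the circRNAs listed in both P13 libraries, the 812 higher ones had a median difference of 2.74-fold and 141 of them differed by at least 4-fold. The 612 lower ones had a median difference of 3.24-fold, with 195 at 4-fold or more. A further 7 of the higher and 159 of the lower circRNAs were listed in only 1 P13 library. With wild type P13 thinned to the 341873 reads of deletion P13, 5440 circRNAs were tested, of which 30 were unlisted in the deletion and 15 in wild type. The median log2 ratio over all 8014 circRNAs was -0.04, and 6424 were not called.

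**Figure D1:**
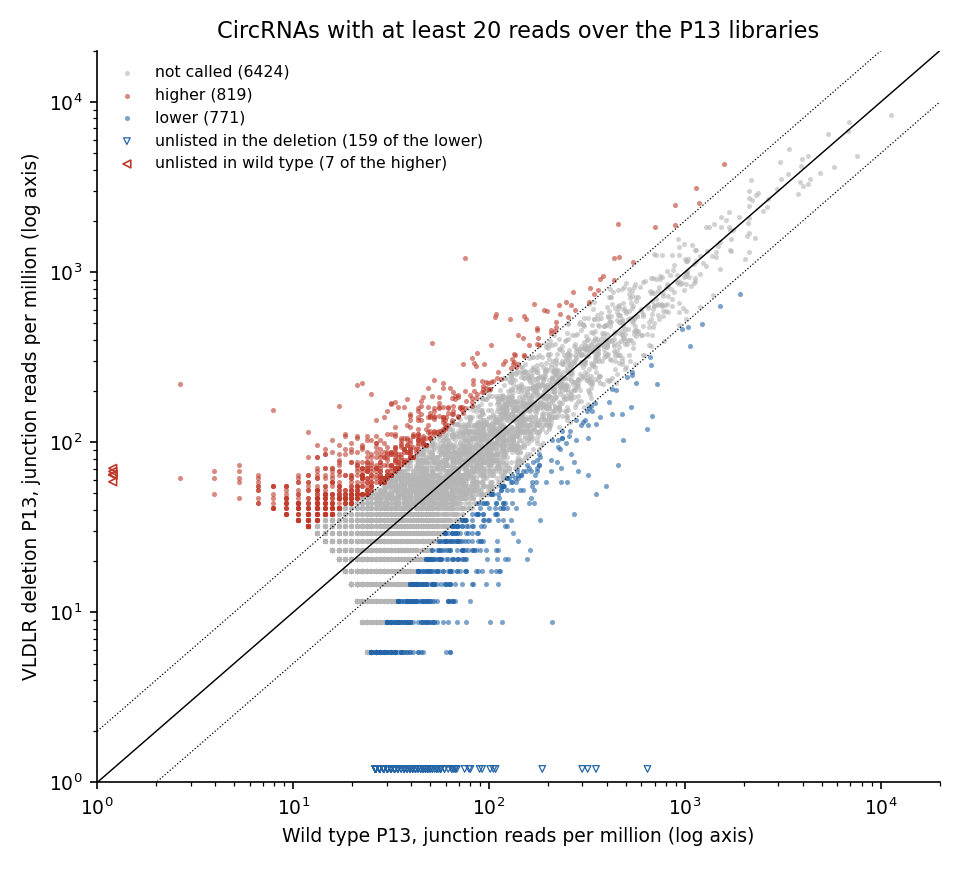
Each point is 1 of the 8014 tested circRNAs, with junction reads per 1000000 in wild type P13 on the horizontal and in deletion P13 on the vertical log axis. The solid line marks equal levels and the dotted lines a 2-fold difference; the 819 red and 771 blue points were called higher and lower, and open triangles on the axes are the 7 and 159 called circRNAs that 1 library did not list.

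The largest differences upward included circRNAs of a neuronal, a lens and a photoreceptor gene. A circRNA of Slc12a5 (chr2:164973687-164974579, exon class), whose host encodes the potassium-chloride cotransporter KCC2 of neurons, held 8, 2, 69 and 75 reads. Both deletion libraries were above both wild-type ones, and the P13 ratio was 83.3 with a counting interval from 22.3 to 700.1. No other listed circRNA shared either of its ends. For the lens fibre gene Bfsp1, which encodes filensin, the circRNA at chr2:143841674-143849023 went from 57 reads in wild type P13 to 411 in deletion P13, a ratio of 16.0 (12.1 to 21.5). Non-junction reads at its splice positions were 2201 and 872, a ratio of 0.88 when scaled like the junction reads, and the share of circular reads there, the junction ratio, went from 0.049 to 0.485. A longer circle from the same start (chr2:143841674-143858117) differed less, with 53 and 65 reads and a ratio of 2.72 (1.87 to 3.99).

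The rod arrestin gene Sag, whose product ends the response of rods to light, gave a pair of the most separated circRNAs. The circle at chr1:87831839-87837333 held 0, 2, 13 and 21 reads (ratio 23.3, interval 5.70 to 205.1) and the one at chr1:87828397-87837333 held 7, 4, 16 and 25 (13.9, 4.79 to 54.9). Both made up little of the signal at their positions, with junction ratios of 0.019 and 0.026 in deletion P13. The most abundant Sag circle called higher, at chr1:87828397-87834627, held 40, 81, 207 and 187 reads and had a ratio of 5.13 (3.93 to 6.74).

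Other circRNAs in this group came from genes of chromatin, splicing and signalling. Kmt2a encodes a histone H3 lysine 4 methyltransferase, and its circRNA at chr9:44809715-44816659 held 11, 6, 44 and 53 reads, a P13 ratio of 19.6 (8.44 to 55.8). The circRNA of Srsf1, a splicing factor of the SR family, at chr11:88049977-88053039 held 17 reads in wild type P13 and 76 in deletion P13 (9.93, 5.81 to 17.9). A second Srsf1 circle from the same start (chr11:88049977-88051332) held 89 and 35 reads, close to equal after scaling. Ube2cbp, which encodes a ubiquitin ligase, had 11, 16, 62 and 74 reads at chr9:86422841-86427437 (10.3, 5.93 to 18.9). The other 6 circles that shared an end with it together held 944 and 377 reads at P13, a ratio of 0.887. Pik3c2a, a class II phosphoinositide 3-kinase, had 10, 13, 122 and 56 reads at chr7:116358636-116360100 (9.56, 5.17 to 19.1). An intergenic circle at chr9:63093427-63093625 held 41, 39, 163 and 131 reads (7.46, 5.18 to 11.0). The circle of Arhgap5, a GTPase-activating protein, at chr12:52516079-52519967 stood apart from these: it held 10, 3, 0 and 23 reads, so that its direction at P12 was the opposite.

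The largest differences downward included circRNAs of cilium genes. A circle of Bbs9, a subunit of the BBSome that carries membrane proteins into cilia, at chr9:22504045-22579593 held 193, 160, 21 and 3 reads. It was 24.0-fold lower in deletion P13 (8.07 to 117.7), and its junction ratio went from 0.152 to 0.007. Nphp4 encodes nephrocystin-4 of the ciliary transition zone, and its circle at chr4:152496649-152507483 held 50, 77, 11 and 3 reads and was 11.6-fold lower (3.81 to 57.3). The kinesin gene Kif1b, whose motor moves synaptic vesicle precursors and mitochondria, had 259, 300, 10 and 19 reads at chr4:149245338-149253751 (7.11-fold lower, 4.47 to 12.0). All 3 were lower in both deletion libraries.

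The remaining ones came from genes of metabolism, signalling, glycosylation and membrane traffic. Bckdhb, a subunit of the branched-chain ketoacid dehydrogenase, had 55, 88, 12 and 3 reads at chr9:83952524-83991822 (13.2-fold lower, 4.37 to 65.3). Ip6k2, an inositol hexakisphosphate kinase, had 309, 268, 18 and 17 reads at chr9:108796064-108796396 (7.10-fold lower). St6gal2, a sialyltransferase, had 220, 207, 16 and 13 reads at chr17:55496292-55498406 (7.17-fold lower). Kcnn2 encodes a calcium-activated potassium channel, and its circle at chr18:45592006-45592424 was 7.66-fold lower with 180, 119, 8 and 7 reads. Neurl1a, a ubiquitin ligase of the Neuralized family, had 421, 346, 34 and 25 reads at chr19:47239802-47240671 (6.23-fold lower). Eipr1, which acts in sorting at endosomes, had 403, 489, 34 and 41 reads at chr12:28859252-28867153 (5.37-fold lower). The circle of Ptpn21, a tyrosine phosphatase, at chr12:98733474-98733834 was 4.74-fold lower with 471, 516, 46 and 49 reads. In each of these both deletion libraries lay below both wild-type libraries after scaling.

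**Figure D2:**
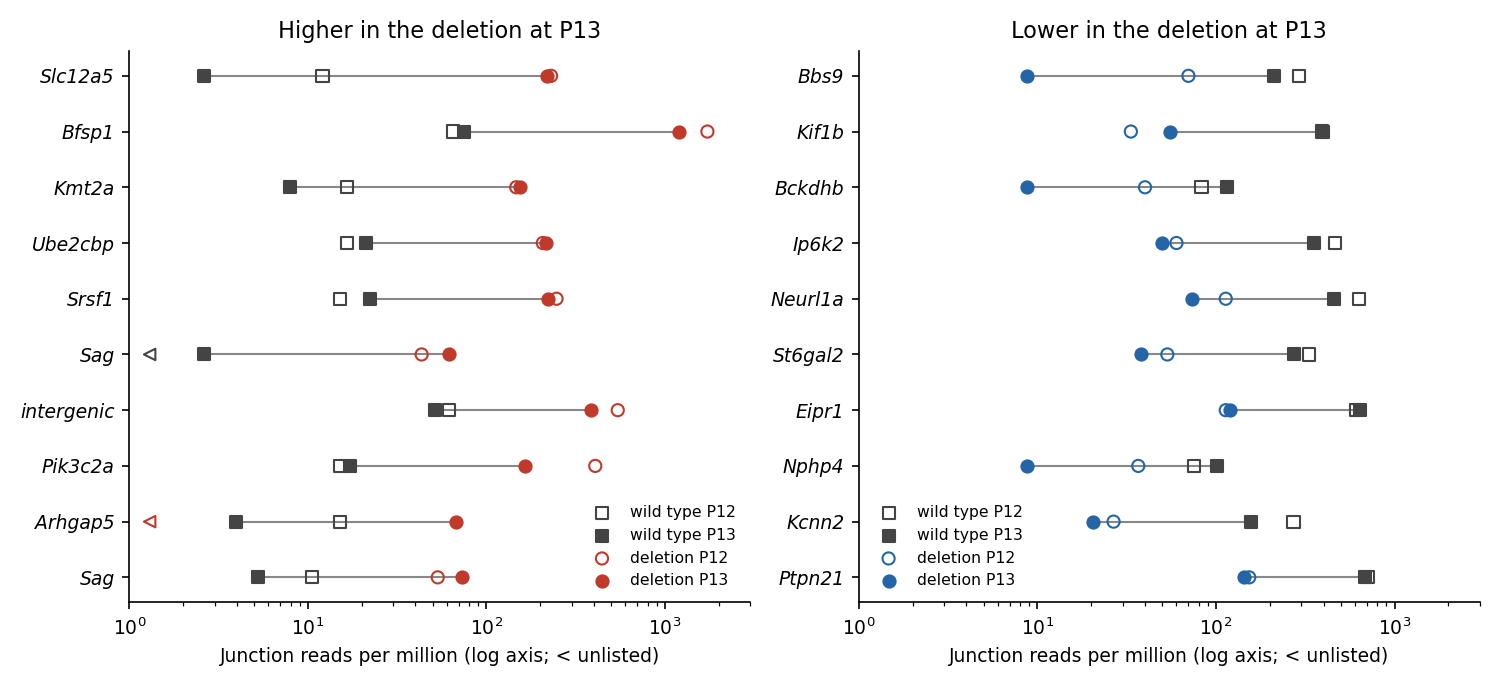
Level (junction reads per 1000000, log axis) in the 4 libraries for the 10 circRNAs called higher (left) and the 10 called lower (right) at P13 whose counting interval lay farthest from 1; squares are wild type, circles the deletion, filled symbols P13 and open ones P12, and an open triangle marks a library that did not list the circRNA. Lines join the P13 libraries, and on the left only Arhgap5, unlisted in deletion P12, has a deletion value below those of wild type.

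Some circRNAs were listed in only 1 genotype at P13, and their folds are bounds computed with 3 reads for the library that did not list them. These hold only where the circRNA was absent and not left out by the caller. A circle of the mismatch repair gene Pms1 (chr1:53207576-53282092) held 489 reads in wild type P13 and was listed in none of the other 3 libraries, at least 73.4-fold lower in deletion P13. Its reads had 37 distinct alignment types, fewer than the 93 of the 160 reads of the Bbs9 circle, and the main Pms1 circle (chr1:53256629-53282092), with the same end, held 2231 and 1046 reads at P13. Rbbp4, a histone chaperone gene, had 187, 267, 66 and 0 reads at chr4:129317648-129322869 (at least 40.1-fold lower). Phkb, which encodes the beta subunit of phosphorylase kinase, had 176, 242, 39 and 0 reads at chr8:85875634-85922242 (at least 36.3-fold lower). The corepressor gene Tle4 had 77, 82, 69 and 0 reads at chr19:14516359-14544862. For Rbbp4, Phkb and Tle4 deletion P12 did hold reads, so that the absence was seen at P13 alone.

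Other circles were missing from both deletion libraries. An intergenic one at chr15:84171082-84186081 held 202 and 227 reads in wild type and was at least 34.1-fold lower at P13. A circle of the axonemal dynein gene Wdr78 (chr4:103095329-103096775) held 97 and 142 reads in wild type and was at least 21.3-fold lower. Of the 159 circRNAs listed in wild type P13 only, 100 were listed in deletion P12 and 59 in neither deletion library, and their median was 26 reads.

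Of the 7 circRNAs listed in deletion P13 only, 4 were listed in neither wild-type library. These included circles of Invs, whose product inversin acts at cilia and in Wnt signalling, with 13 and 22 reads in the deletion at chr4:48382105-48385272, and of the ubiquitin ligase gene Nedd4, with 25 and 22 at chr9:72731222-72735239. Each was at least 16.3-fold higher. Circles of Epb41l2, a protein that ties the membrane to the cytoskeleton (51, 0, 12 and 24 reads at chr10:25479009-25507857), Setbp1 (62, 0, 0 and 22 at chr18:79027924-79087180) and Dpp6 (34, 0, 18 and 22 at chr5:27631379-27634606) were listed in wild type P12, above deletion P12 for Epb41l2 and Setbp1. A circle on chromosome 17 (39843511 to 39845357), whose host identifier had no match in the gene table, held 23 reads beside 29966 non-junction reads.

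The 5 most abundant circRNAs each differed by less than 2-fold. The 5 with the most reads at P13 were an intergenic circle (chr10:92075170-92136690; 8525 reads at P13 in wild type against 2884 in the deletion) and circles of Gigyf2, Ano2, Bbs9 and Phf21a. Their P13 ratios were 0.751, 1.11, 0.992, 0.635 and 1.21, and none was called. The counting interval held 1 for Ano2 alone. It ran from 0.720 to 0.784 for the intergenic circle and from 0.601 to 0.671 for Bbs9. For Gigyf2 it ran from 1.06 to 1.16 and for Phf21a from 1.14 to 1.27. Of the 107 circRNAs with at least 1000 reads, 7 were called higher and 3 lower, against 10.2% and 9.62% over all circRNAs. These called circles were chosen after their values were seen. The most abundant was a second circle of Bbs9 (chr9:22887581-22887996), which held 1271, 1198, 1743 and 1480 reads and was 2.74-fold higher at P13 (2.54 to 2.96). An intergenic circle (chr6:67077248-67116767) followed, with 869 and 1063 reads at P13 and a ratio of 2.72 (2.48 to 2.97). The Mediator gene Med13l had 347 and 657 at chr5:118593333-118593570 (4.20, 3.69 to 4.80). Circles of Atxn1, Camta1 and Eri3 were higher by between 2.12-fold and 2.59-fold. The 3 abundant circles called lower came from Anks1b, a postsynaptic scaffold gene (1458 and 254 reads; 2.59-fold lower, 2.26 to 2.97), the chromatin remodeller gene Ep400 (1152 and 217 reads; 2.39-fold lower) and Pitpnm3 (929 and 169 reads; 2.48-fold lower).

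Marker genes were used to describe which tissues of the eye the hosts point to. Only back-spliced reads were counted, so that a marker gene without a circle does not show that its tissue was missing. In whole ocular tissue a difference in the number of cells of a type and a difference in RNA per cell cannot be told apart. Photoreceptor genes gave the most circRNAs among the cell type lists: 34 of the 55 genes had a circle at P13, and their circles took 10530, 11690, 13050 and 13160 of every 1000000 junction reads. Genes that define rods and cones but held no circle at P13 included Gnat1, Nrl, Arr3 and Opn1sw. Without Sag the photoreceptor levels were 10100, 11210, 11470 and 11730. Lens genes took 2079, 2280, 3697 and 3212 of every 1000000, with 18 of 34 listed and Mip and Lim2 among those with no circle. That difference between genotypes rested on Bfsp1, since without it the lens levels were 1596, 1827, 1501 and 1562. Striated muscle genes took 4321, 4687, 4885 and 5207, and 2360, 2710, 2776 and 2773 without Dmd. Of these 38 genes 12 were listed, and the defining muscle genes Acta1, Myh1, Myh2, Myh4, Neb, Des, Actn3 and Casq1 held no circle. Some lists held few reads, given here unscaled for wild type P13 and deletion P13. They were endothelial cells (163 and 65), microglia (73 and 54), Müller glia (8 and 9), pericytes (10 and 4) and corneal epithelium (2 and 0). Of every 1000000 junction reads, endothelial markers took 214.7 and 190.1, microglia 96.2 and 158.0, Müller glia 10.5 and 26.3, and pericytes 13.2 and 11.7. Cdh5, Cldn5, Cx3cr1, Rlbp1, Pdgfrb and Krt12 held no reads.

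Photoreceptor hosts had 16 circRNAs higher and 2 lower of 101 tested (15.8% and 1.98%, against 10.2% and 9.62% over all circRNAs), with a median log2 ratio of 0.12, which on the SRPBM scale was -1.44. The 16 came from 9 of the 22 hosts tested, among them Sag with 4, Pde6a with 3, Gucy2f and Rpgrip1 with 2 each, and Cngb3, Impg2, Pcdh15 and Prom1 with 1. Without chromosome X, which carries Gucy2f, 14 were higher and 2 lower of 93. Pde6a encodes the alpha subunit of the rod phosphodiesterase, and its circle at chr18:61262416-61265065 held 27, 34, 42 and 60 reads (3.92-fold higher, 2.53 to 6.16). Rpgrip1 encodes a protein of the connecting cilium, and its 2 higher circles were chosen, like that of Pde6a, after their values were seen. At chr14:52120473-52121121 and chr14:52156153-52158454 they held 23 and 39 reads in wild type P13 and 52 and 64 in deletion P13. The other 12 of its 14 tested circles were not called. The most abundant of them, at chr14:52120473-52133859, held 1731 and 543 reads at P13, a ratio of 0.697 (0.631 to 0.767). For the retinal guanylate cyclase gene Gucy2f the circle at chrX:142116238-142161931 held 61, 54, 33 and 55 reads (2.26-fold higher), with no difference called at P12. The 2 lower circles were those of Pcdh15, a cadherin of photoreceptors and hair cells (chr10:74379333-74454101; 43 reads in wild type P13 and none listed in the other libraries), and Impg2, of the matrix between photoreceptors (chr16:56218314-56231552; 20 reads and none listed in deletion P13). Both hosts also had 1 circle that was higher.

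Lens hosts had 5 circRNAs higher and 1 lower of 23 tested (21.7% and 4.35%, against 10.2% and 9.62% over all circRNAs), and their median log2 ratio was -0.04. The 5 came from 2 of the 5 hosts tested, and at P12 2 of the 18 that were tested again were higher and 1 was lower. Both circles of Bfsp1 described above were among the higher ones. The lower one was from Prox1, a transcription factor of lens fibres and of horizontal cells, with 128, 199, 55 and 29 reads (chr1:190146952-190162313; 3.09-fold lower, 2.09 to 4.73). Bipolar cell hosts had 3 higher and 3 lower of 15, among them circles of the glutamate receptor gene Grik1 in both directions: 23 and 22 reads at chr16:87995915-88034336 (2.12-fold higher) and 41 and 0 at chr16:88051335-88056175 (at least 6.16-fold lower). A circle of Otx2, a transcription factor of photoreceptors and bipolar cells, was 3.15-fold lower with 42 and 6 reads. For pigment cells 2 circles were higher and 1 lower of 14 (14.3% and 7.14%). The premelanosome gene Pmel was 2.08-fold higher (49 and 46 reads) and Myrip 3.83-fold lower (34 and 4). Striated muscle hosts had 6 higher and 2 lower of 45 (13.3% and 4.44%). Of the 45, 30 were on the X chromosome, where Dmd had circles in both directions. Without the X chromosome 2 were higher and 1 lower of 15. None of the 7 circRNAs of amacrine, horizontal and ganglion cell hosts was called. On the SRPBM scale the median of each list with a tested circRNA was below 0.

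**Figure D3:**
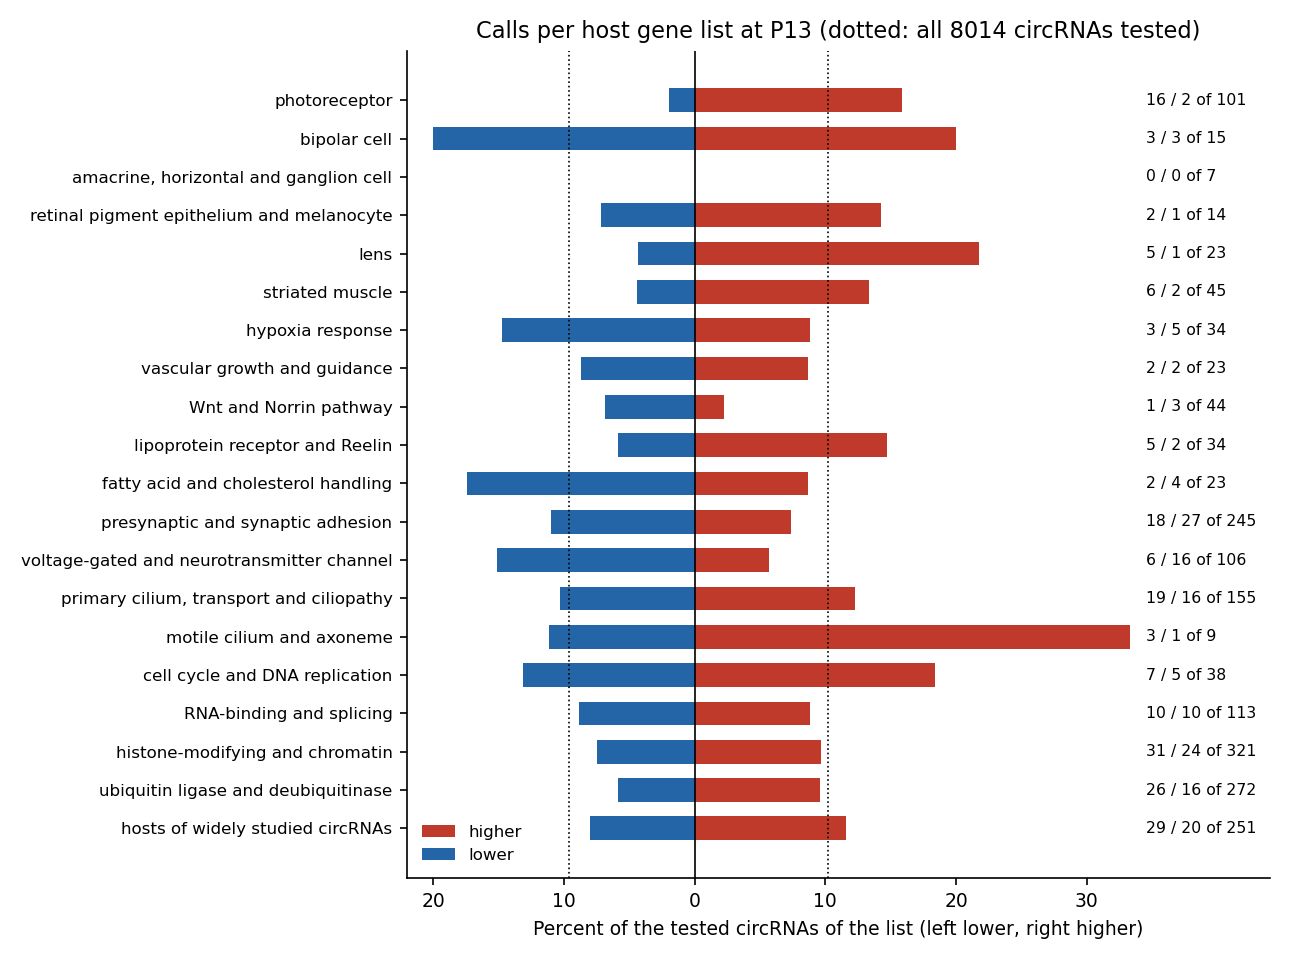
Bars give the percent of the tested circRNAs of each host gene list that were higher (right) or lower (left) in deletion P13, with counts at the right and dotted lines at the shares over all tested circRNAs (10.2% and 9.62%). Photoreceptor hosts have 16 higher and 2 lower of 101, and channel hosts 6 higher and 16 lower of 106, scaled to total junction reads. On the SRPBM scale 2 and 61 photoreceptor circles and 0 and 85 channel circles were higher and lower.

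The partners of VLDLR in Reelin signalling were among the hosts, and none was called. Reln, which encodes the ligand, had 92, 103, 30 and 57 reads over all its circles, a P13 ratio of 1.23 (0.873 to 1.71). Lrp8, the other Reelin receptor, had 70, 69, 20 and 32 reads (1.03, 0.655 to 1.59), and the adaptor gene Dab1 had 44, 49, 31 and 19 (0.861, 0.479 to 1.49). The interval of Dab1 reached past the 2-fold limit and those of Reln and Lrp8 did not. Apob, Ffar1 and Pparg held no circle in any library. Over the 34 tested circRNAs of lipoprotein receptor and Reelin hosts 5 were higher and 2 lower (14.7% and 5.88%, against 10.2% and 9.62% over all circRNAs), with a median log2 ratio of -0.16. At P12, 1 of the 30 tested again was higher and 2 were lower. The higher ones were from other sorting and endocytic receptors: Sorcs1, a sorting receptor of neurons, with 58, 64, 59 and 68 reads at chr19:50252534-50262367 (2.36-fold, 1.65 to 3.37) and a second circle, Lrp2, the endocytic receptor megalin, with 6 and 17 reads at chr2:69548940-69552460 (6.29-fold, 2.37 to 19.5), Lrp1b and Ldlrad3. A circle of Lrp5, the co-receptor of Norrin and Wnt ligands in retinal vessels, held 24 reads in wild type P13 and none in deletion P13 (chr19:3600673-3605494), and one of the HDL receptor gene Scarb1 held 45 and 10 (2.03-fold lower, 1.01 to 4.51).

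Hosts of fatty acid and cholesterol handling had 2 higher and 4 lower circRNAs of 23 (8.70% and 17.4%, against 10.2% and 9.62% over all circRNAs). Those of Elovl5, a fatty acid elongase (12 and 16 reads; 2.96-fold), and Osbpl6 (25 and 28 reads; 2.49-fold) were higher. Circles of the cholesterol exporter gene Abca1 (124 and 23 reads; 2.43-fold lower, 1.55 to 3.97) and of Acadm, the medium-chain acyl-CoA dehydrogenase (74 and 15 reads; 2.22-fold lower), were lower. In hypoxia response hosts 3 circRNAs were higher and 5 lower of 34 (8.82% and 14.7%), with a median log2 ratio of 0.01. A circle of Foxo3, a stress-responsive transcription factor, held 94, 101, 7 and 10 reads at chr10:42196466-42197901 and was 4.55-fold lower (2.37 to 9.77). That of the histone demethylase gene Kdm4b held 628, 544, 73 and 75 (chr17:56351633-56356056; 3.27-fold lower, 2.56 to 4.22). Kdm4c, its relative, had circles in both directions: 30 and 46 reads at chr4:74348400-74359528 (3.40-fold higher) and 90 and 14 at chr4:74262809-74271369 (2.90-fold lower).

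Genes of vascular growth and guidance gave 23 tested circRNAs, with 2 higher and 2 lower (8.70% each, against 10.2% and 9.62% over all circRNAs). Plxnd1, the semaphorin receptor of endothelial cells, had 9, 5, 27 and 19 reads at chr6:115969876-115970248 and was 8.44-fold higher (3.05 to 28.9), the single called circle among the endothelial markers. A circle of the growth factor receptor gene Fgfr2 was 2.89-fold higher with 10 and 13 reads. Efnb2, an ephrin of arteries and neurons, had 30, 68, 25 and 9 reads (chr8:8639206-8641256; 3.40-fold lower, 1.69 to 7.76), and Tgfbr1, a receptor of TGF-beta, 50, 76, 12 and 12 (chr4:47383749-47396585; 2.85-fold lower). Of 44 circRNAs of Wnt and Norrin hosts, 1 was higher (Invs) and 3 were lower (Lrp5, Apc and Ryk); the circle of the Wnt receptor gene Ryk held 45 reads in wild type P13 and none in deletion P13 (chr9:102881654-102906173). These shares, 2.27% and 6.82%, were both under those over all circRNAs.

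Synaptic and channel hosts are set beside the shares over all circRNAs at P13, 10.2% higher and 9.62% lower. Presynaptic and adhesion hosts had 18 higher and 27 lower of 245 (7.35% and 11.0%), with a median log2 ratio of -0.16. The lower share was near that over all circRNAs. Hosts encoding voltage-gated and transmitter channels had 6 higher and 16 lower of 106 (5.66% and 15.1%), with a median of -0.24. At P12 the channel list had 8 higher and 5 lower of the 89 tested again, with a median of -0.05, and the presynaptic list 15 and 20 of 201, with a median of -0.06. Of the 16 lower circles in the channel list, 5 were from Ano2, the calcium-activated chloride channel of photoreceptor terminals, such as that at chr6:125980095-125992964 with 259, 253, 99 and 56 reads (2.04-fold lower, 1.52 to 2.77). Adgrl3, an adhesion receptor of synapses, had 109, 136, 17 and 25 reads at chr5:81511984-81512784 (2.45-fold lower). Among the higher ones, Cacna2d1, a subunit of calcium channels, had 39, 13, 40 and 33 reads at chr5:16264258-16267475 (5.64-fold higher, 2.89 to 11.7). Rims2, which organises the release site of synaptic vesicles, had an intron-class circle with 172, 260, 174 and 254 reads at chr15:39610064-39616510 (2.17-fold higher, 1.82 to 2.59).

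Cilium hosts went in both directions. Hosts of the primary cilium and its transport had 19 circRNAs higher and 16 lower of 155, close to the shares over all circRNAs. The motile cilium list rested on 9 tested circRNAs, of which 3 were higher and 1 lower, all from Wdr78. Its higher circles at chr4:103059618-103072843 (411 and 390 reads) and chr4:103048210-103072843 (164 and 155) were 2.11-fold and 2.10-fold higher, while the circle named above was listed in wild type only. Cell cycle hosts had 7 higher and 5 lower of 38 (18.4% and 13.2%, against 10.2% and 9.62% over all circRNAs). The checkpoint gene Bub1b was 5.37-fold higher (24 and 58 reads; 3.28 to 9.03), and the DNA polymerase gene Pola1, on the X chromosome, 2.70-fold higher (187 and 227 reads). A pair of circles of Rb1, the retinoblastoma gene, was lower: 130 and 22 reads at chr14:73262529-73269198 (2.66-fold) and 68 and 8 at chr14:73262529-73265632 (3.83-fold).

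Among lists of regulators, RNA-binding and splicing hosts had 10 circRNAs higher and 10 lower of 113 (8.85% each, against 10.2% and 9.62% over all circRNAs). Chromatin hosts had 31 and 24 of 321 (9.66% and 7.48%). Ubiquitin ligases and deubiquitinases had 26 and 16 of 272 (9.56% and 5.88%), the lower share being under the 9.62% over all circRNAs. Hosts of widely studied circRNAs had 29 and 20 of 251 (11.6% and 7.97%). Members with the most reads included Rbms1 (44 and 76 reads; 3.84-fold higher), Kmt2c (193 and 185; 2.13-fold higher), Fbxo42 (145 and 205; 3.14-fold higher, 2.53 to 3.91) and Cul4a (150 and 201; 2.98-fold higher). Lower ones included Tnrc6c, a partner of Argonaute (133 and 27 reads; 2.22-fold), Ncor1 (119 and 25; 2.14-fold), Rnf169 (92 and 15; 2.76-fold) and Usp34 (84 and 8; 4.73-fold).

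Calls were also counted per host gene. Of 3091 hosts with a tested circRNA, 611 had 1 or more higher, 607 had 1 or more lower and 119 had both. Whether 119 differs from the number that the separate counts would give was not tested. Of the 784 hosts with at least 2 tested circRNAs and a call, all tested circles were higher in 13 and lower in 16. A circle that was not called counts against a host here. Sag, with 4 of 7 circles called higher and no log2 ratio below 0.903, was not among the 13. On reads summed over all circles of a host, 211 of 3768 hosts were higher (5.6%) and 376 lower (9.98%). Leaving out the most abundant circle of each host gave 113 higher and 282 lower of the 2382 hosts then tested. Without X and Y the counts were 209 and 362.

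Among hosts with at least 2 tested circles, those described next had the counting interval of their summed reads farthest above 1, a rule that favours hosts with many reads. Med13l had 464, 437, 842 and 721 reads and was 3.66-fold higher (3.25 to 4.13), with 3 of its 4 circles higher. Bfsp1 was 3.64-fold higher (3.18 to 4.17) with 2 of 4. Sag was 2.97-fold higher (2.59 to 3.41) with 4 of 7, and none of its circles was lower. Frmd4a, which acts in epithelial polarity, was 3.42-fold higher with 48 and 74 reads at P13. Pdss2, an enzyme of coenzyme Q synthesis, was 3.07-fold higher with both circles higher (107 and 148 reads), and Fbxo42 was 2.90-fold higher (169 and 221).

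By the same rule on the lower side, Uty, on the Y chromosome, had 219, 300, 71 and 0 reads. Slc17a5, the lysosomal sialic acid exporter, had 103, 137, 8 and 0 and was at least 20.6-fold lower at P13. Eipr1 had 461, 542, 46 and 44 reads (5.55-fold lower, 4.08 to 7.73), with both of its tested circles lower. The circles of Lmnb1, which encodes lamin B1, were 7.99-fold lower with 71 and 4 reads (2.99 to 30.1). Those of Tm9sf3, of the Golgi, were 7.66-fold lower with 85 and 5 (3.16 to 24.2). Nup98, a nuclear pore gene, had 151, 237, 52 and 25 reads and was 4.27-fold lower. Lmnb1, Tm9sf3 and Nup98 were not called at P12.

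The hosts described next were chosen for having many called circles with calls in both directions, so that mixed calls follow from the choice. Over all circRNAs 10.2% were higher and 9.62% lower. The summed reads of each of these hosts differed by less than 2-fold. Rims2 had 7 circles higher and 4 lower of 36, with a ratio of 1.35 for its summed reads (1.27 to 1.43). Arhgap10 had 4 and 2 of 33 (1.38, 1.33 to 1.43) and Bbs9 3 and 3 of 26 (0.928, 0.898 to 0.959). Rere, a nuclear receptor corepressor gene, had 1 higher and 10 lower of 32 (0.815, 0.766 to 0.868) and Ano2 1 and 5 of 22 (0.875, 0.843 to 0.908). None of these intervals held 1. In Bbs9 the log2 ratios of single circles ran from -4.59 to 1.46. In all, 50 of the 819 higher and 47 of the 771 lower circRNAs shared a splice end with one called the other way. The same share was not computed for circRNAs that were not called.

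**Figure D4:**
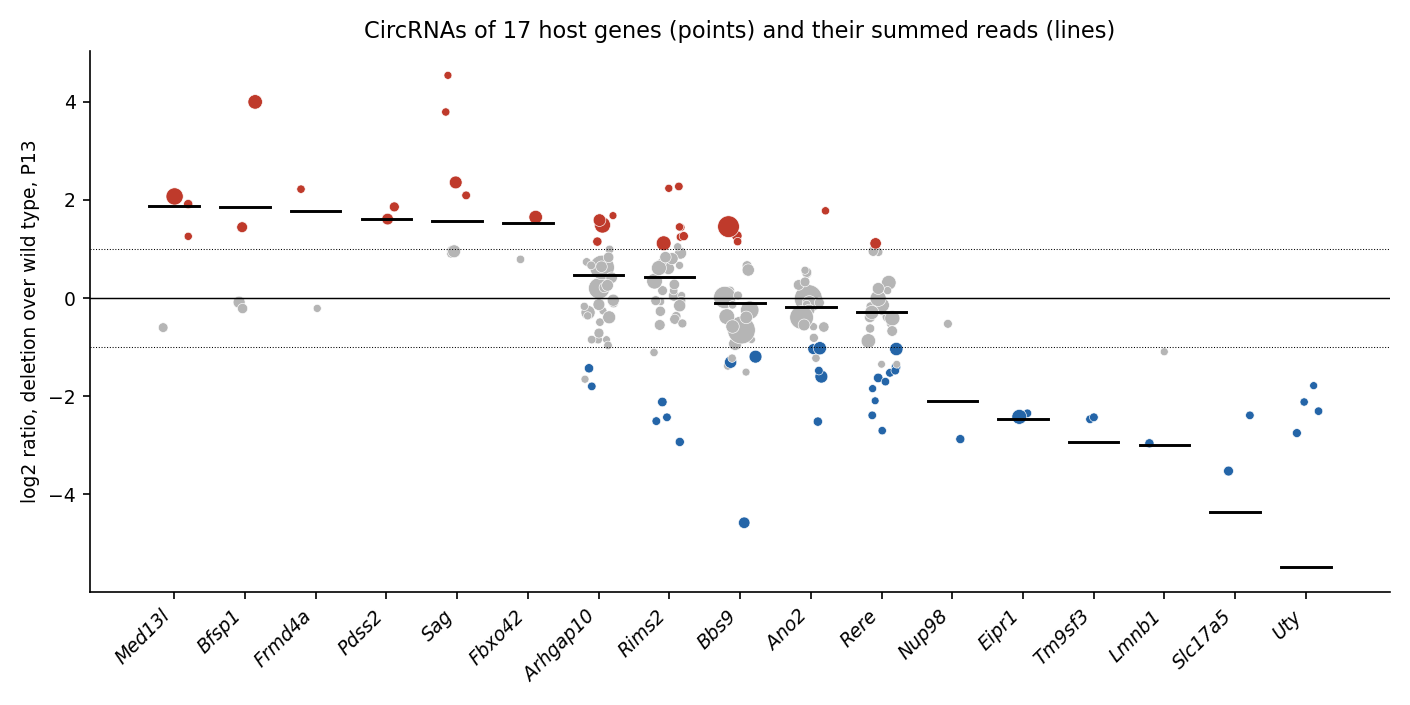
Points are the tested circRNAs of the 6 hosts whose summed reads had the interval farthest above 1, 5 with many calls in both directions and the 6 farthest below 1, by log2 ratio of deletion to wild type at P13; red is higher, blue lower, grey not called, point size grows with reads, and the black line is the ratio of the host's summed reads. In Rims2 7 circles are higher and 4 lower around a summed ratio of 1.35, while both circles of Eipr1 are lower; for unlisted circles the ratio is the bound with 3 reads.

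Reads that pass a splice position without back-splicing were also listed. For 7546 tested circRNAs with at least 20 such reads over the P13 libraries, 4.23% were at least 2-fold higher in the deletion and 3.54% at least 2-fold lower, scaled to their median. Among 777 circRNAs called higher on junction reads, 53 were 2-fold higher on non-junction reads and 14 lower, with a median log2 ratio of 0.16. Among 592 called lower, 12 were higher and 54 lower, with a median of -0.24. These non-junction reads come from libraries depleted of linear RNA, so that they do not measure the host's messenger RNA.

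The junction ratio, the share of circular reads at a splice site, was compared for the 13749 circRNAs listed in both P13 libraries with at least 20 junction and non-junction reads in each. It was higher by at least 0.2, with counting intervals that did not overlap, for 228 (1.66%) and lower for 226 (1.64%), and its median was 0.207 in wild type P13 and 0.212 in deletion P13. For circRNAs called higher on junction reads the median went from 0.286 to 0.502, and for those called lower from 0.449 to 0.2; junction reads enter both measures. The largest increases were in Kmt2a (0.25 to 0.906), Trappc11 (0.057 to 0.611), the ciliary transport gene Ift52 (0.296 to 0.836), the collagen gene Col24a1 (0.286 to 0.8) and the calcium-binding protein gene Cabp1 (0.243 to 0.744). The largest decreases were in Clasp2, which binds microtubule ends (0.761 to 0.182), Fmn2 (0.71 to 0.167), the nuclear exporter gene Xpo1 (0.579 to 0.074), Tfdp2 (0.821 to 0.316) and the histone methyltransferase gene Setdb1 (0.672 to 0.194). In Cabp1 the junction reads were 21 and 29 and the non-junction reads 131 and 20. In Clasp2 they were 35 and 4, and 22 and 36. Several of these ratios rested on few junction reads: Trappc11 held 2 and 11, Fmn2 11 and 2, Xpo1 22 and 2, and Setdb1 40 and 3. Trappc11 and Fmn2 were under the minimum of 20 junction reads and entered only because the limit here counts non-junction reads too.

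At P12, with tissue taken as the oxygen ended, 797 circRNAs were higher in the deletion (11.0% of 7261) and 769 lower (10.6%). Of the 819 circRNAs higher at P13, 670 were tested at P12, and 311 of these were higher there, which is 46.4% of them and 44.6% of the 698 circRNAs higher at P12 and tested at P13. Another 349 were not called at P12 and 10 were lower. Of the 771 lower at P13, 604 were tested at P12: 251 were lower there (41.6%, and 37.2% of 675), 347 were not called and 6 were higher. The direction alone carried over more often: 581 of the 670 had a ratio above 1 at P12 and 508 of the 604 a ratio below 1, against 49.3% above 1 over the 6470 circRNAs tested on both days. The days share no library, but the libraries of a genotype share their sequencing run on both days. Circles of Slc12a5, Bfsp1, Kmt2a, Srsf1, Kif1b and Eipr1 were among those called in the same direction on both days, and those of Prox1 (128 and 55 reads at P12), Efnb2 (30 and 25) and Gucy2f were called at P13 alone. That a circle passed the limits on 1 day only is no sign that the days differed, which was not tested.

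**Figure D5:**
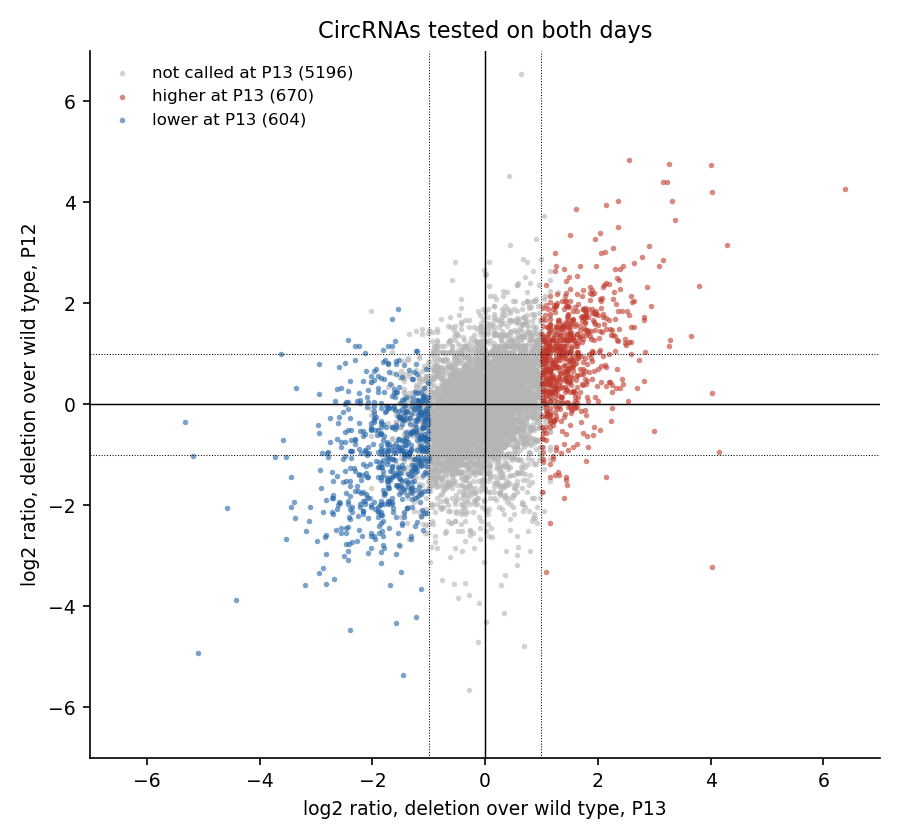
Each point is 1 of the 6470 circRNAs tested on both days, with the log2 ratio of deletion to wild type at P13 on the horizontal and at P12 on the vertical axis; dotted lines mark 2-fold differences, and 3 reads stand for an unlisted library. Of the 670 red points (higher at P13) 581 lie above 0 at P12, and of the 604 blue points (lower at P13) 508 lie below 0.

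The calls were spread over circRNA classes, sizes and chromosomes. Of 7347 exonic circRNAs 9.83% were higher and 9.50% lower, of 345 intronic ones 12.5% and 10.7%, and of 322 intergenic ones 16.8% and 11.2%. The share called was smaller where reads were more, from 11.5% higher and 9.78% lower among the 4429 circRNAs under 50 reads to 6.37% and 5.62% among the 534 with 300 or more. The median genomic span was 8138 bases for higher, 9797 for lower and 10680 for circRNAs not called. By chromosome the share higher ran from 7.12% on chromosome 17 to 15.3% on chromosome 13, and the share lower from 5.95% on chromosome 14 to 13.9% on chromosome 9, leaving out Y, all of whose 4 tested circRNAs were lower. Chromosome 19, which carries Vldlr, had 21 higher and 23 lower of 226.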

How the data were processed

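CircRNA libraries of total RNA from ocular tissue were depleted of ribosomal and linear RNA and sequenced in pairs, per the labels' protocols. Per the file headers, which follow CIRI, the authors listed for every circRNA a count of junction reads, its class and host identifier, and the non-junction reads. The junction ratio was deposited as a fraction, which the authors computed as 2 times the junction reads over that number plus the non-junction reads (recomputed values differed by at most 0.0005). The deposited SRPBM signal is the junction reads divided by 1 constant per library, whose meaning the sources used here do not state. Coordinates are as deposited (genome build not given in the sources used here). The submitters' processing notes name BWA and DESeq2 without role or version. Each table lists circRNAs with at least 2 junction reads.

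Junction reads of the P13 libraries were joined on the circRNA position and divided by the library total. Ratios carry exact conditional (Clopper-Pearson) 95% intervals (SciPy 1.17.1, Python 3.11.15), which span counting error alone because molecules carried no identifiers. Between 99.9% and 99.94% of host identifiers per library matched a RefSeq gene table of GRCm38.p6, which was used for names. Alternatives were size factors from edgeR 4.0.16 (TMM) and DESeq2 1.42.0, run in R 4.3.3, the SRPBM constants, other minimums, folds and intervals, thinning of wild type P13, its single lanes, merging of ends within 10 bases, and, added after seeing the data, reads within 2500 pixels on a tile counted once, at least 10 alignment types, leaving out X and Y, and cell type levels without Sag, Bfsp1 or Dmd.

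Named circRNAs were, per direction, the 10 with the interval farthest from 1, the 6 with the most reads among those listed in 1 library, up to 2 per gene list, the 5 with the largest called difference of junction ratio and the 5 with most reads called in opposite directions on the days, with the 5 most abundant, 6 hosts for each pattern, and Vldlr, Reln, Dab1, Lrp8, Apob, Ffar1 and Pparg. Circles of Pde6a, Rpgrip1, Lrp2, Lrp1b and Apc, the lower circle of Kdm4c and the abundant called circles were added after their values were seen. The comparison, the gene lists and the naming rule were chosen with earlier results of these data known. Some circRNAs and hosts that met the rule are not reported here. No sequence was printed, since the genome was not used here.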

Additional observations from a re-analysis of the deposited data

Results flagged for a closer look

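Of the circRNAs tested on both days, 16 were called in opposite directions in the deletion at P12 and P13, 10 of them lower at P12 and higher at P13 and 6 the other way. They had a median of 41 and at most 82 reads over the P13 libraries, and the difference between the days was not tested. Among those of each kind with the most reads, 4 follow, with log2 ratios of deletion to wild type.

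Lower at P12 and higher at P13 were circles of Mettl15, a mitochondrial ribosomal RNA methyltransferase (-3.314 with 3 reads for the library that did not list it, and 1.08), Zfp638 (-1.077 and 1.203), Tbc1d16, a GTPase-activating protein for Rab proteins (-1.025 and 1.21), and Zfp827 (-1.145 and 1.025). Higher at P12 and lower at P13 were circles of Pakap (1.059 and -1.218), Cyfip2, of the actin-regulating WAVE complex (1.049 and -1.203), Map3k21 (1.882 and -1.55) and Ehbp1, of endosomal traffic (1.26 and -1.604). The Mettl15 circle (chr2:109131485-109137532) held 66 wild-type reads at P12 and 42 at P13, against 0 and 40 for the deletion.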

How the results depend on the processing

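All counts stayed within 1.5 times under TMM scaling, DESeq2 size factors, merged ends, reads near another on a tile counted once, and without X and Y, in each case where that alternative was run. TMM scaling kept all 819 higher and 771 lower circRNAs. Counting nearby reads once kept 697 and 671, and a 99% interval kept 577 and 531. On the SRPBM scale 34 circRNAs were higher and 5834 lower, 5 hosts higher and 3140 lower, and 13 and 3632 were so on both days. Of the 819 higher circRNAs, 343 were above wild type there. With no minimum of reads 2624 were higher and 1804 lower, from 10 reads 1310 and 1804, and from 50 reads 311 and 338. At 3-fold 321 and 499 circRNAs, 59 and 220 hosts, and 102 and 124 on both days remained past the limit; at 1.5-fold 392 and 584 hosts were, and 480 higher on both days. With wild type P13 thinned, 477 circRNAs and 238 hosts were lower, and with its single lanes 467 and 488 circRNAs were; fewer were tested. Without the most abundant circle of each host 113 hosts were higher. For the junction ratio, a difference of 0.1 gave 376 higher and 374 lower, at least 50 reads 143 lower, and a 99% interval 100 of each. The cause of the SRPBM shift was not tested. No replicate could be left out with 1 library in each group. No paired analysis was possible because the groups held 1 library each. At least 3 alignment types changed nothing, since each listed circRNA had that many.

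On the SRPBM scale 25 named circRNAs called higher lay below wild type, with these log2 ratios: Pmel -0.498, Tbc1d16 -0.348, Kcnma1 -0.544, Rims2 -0.44, Dlg1 -0.364, Grik1 -0.471, Fhod3 -0.296, Sorcs1 -0.319, Ldlrad3 -0.407, Mettl15 -0.477, the longer Bfsp1 circle -0.112, Osbpl6 -0.243, Lrit3 -0.358, Wdr78 -0.488 and -0.482, Kdm4c -0.102, Kmt2c -0.468, Zfp638 -0.354, Fgfr2 -0.028, Arhgap10 -0.068, Zfp827 -0.532, Bbs9 -0.102, Gucy2f -0.38, Dmd -0.497 and Pola1 -0.127.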
